A study of Mus with 4 samples.

Results

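Predicted small RNAs with 5 or more listed pseudouridine (Ψ) sites were examined in the cochlea of untreated mice that carry the Otof c.1315 C > T mutation. They were Gm22009, Gm25395, Gm23547, Gm23946, Gm24119 and Gm25835, which are 6 of the 465 genes of the table and hold 37 of its 755 sites. These RNAs were chosen by a measured value, the number of sites listed for each. Their site counts and their listing therefore carry no test here. The assay was PRAISE, a bisulfite-based chemistry after which a Ψ is read as a deletion in the sequenced copy of the RNA. Each replicate had a library with this chemistry and a control library without it. The Ψ level of a site is the percentage of chemistry reads with a deletion minus that percentage in the control.

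The labels describe 4 samples, 2 with RESTART v3 and 2 untreated, and all carry the same mutation (R439X), a premature stop in Otof, whose product otoferlin serves vesicle release in inner hair cells. RESTART v3 is a guide snoRNA, given by virus with a dyskerin isoform and a transfer RNA, meant to place Ψ in that stop codon. The values are headed OTOF-/- 1 and OTOF-/- 2, a notation for mutation of both copies of the gene. They were taken as those of untreated replicates 1 and 2, while samples with RESTART v3 were not analysed here. Whole cochlear tissue with its many cell types was used, the model was made by CRISPR-Cas9 editing, and the ages and the number of animals per sample are not given in the labels. The differences between replicates given here therefore measure only the spread between these samples, which may be technical. The table holds modified sites and no expression values, so the tissue label could not be checked against marker genes.

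Small nucleolar RNAs (snoRNAs) of the H/ACA class pair with other RNAs and direct the enzyme dyskerin to turn a chosen uridine into Ψ, mostly in ribosomal RNA. Related guide RNAs of the Cajal body, the scaRNAs, do the same for spliceosomal RNAs, and some also guide methylation. In mammals most of these guides are cut out of the introns of other genes. Guide RNAs can carry Ψ themselves, made by guided or by stand-alone synthases.

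The labels of these RNAs as small RNAs were checked against a RefSeq gene table, which held 4 of the 6. Gm22009 (343 bases) and Gm25395 (272 bases) were typed as guide RNA, the class in which the table also placed all 9 of its named scaRNA genes. Gm24119 (246 bases) and Gm25835 (144 bases) were typed as snoRNA. Gm23547 and Gm23946 had no entry, and their type is not given here. By the same table Gm22009 lies within the bounds of Kpna4, an importin alpha of nuclear transport, and Gm25395 within those of Atg16l1, an autophagy gene. Gm24119 lies within Slc25a3, the mitochondrial phosphate carrier, and Gm25835 within Eif4a1, a helicase of translation initiation. Of these enclosing genes only Kpna4 had a listed site of its own, at positions 1947 to 1948, with 25% in replicate 2 over 88 chemistry reads and no value in replicate 1.

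Sites under 15% were the largest group in these RNAs, and only the few above 70% lay apart from the rest. Values in both replicates were available at 30 of the 37 sites. Of these, 16 had a mean level under 15%, 11 lay from 15% to 50%, and 3 lay above 70%. Among the last, positions 316 to 317 of Gm22009 had only 16 and 15 chemistry reads. The strongest site with deep reads was in Gm24119 at positions 172 to 173 (89.4% ± 2.70, SD, n = 2), and the next was position 219 of Gm22009 (75.8% ± 2.01). The weakest was Gm24119 at positions 12 to 13 (5.63% ± 0.467), close to the 5% below which no site was listed. Positions are counted from 1 at the 5′ end of the RefSeq transcript. Of the 37 sites, 17 were single positions and 20 were runs of 2 to 7 adjacent positions listed with 1 shared level. This level does not tell which position of a run was modified, or whether more than 1 was.

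**Figure D1:**
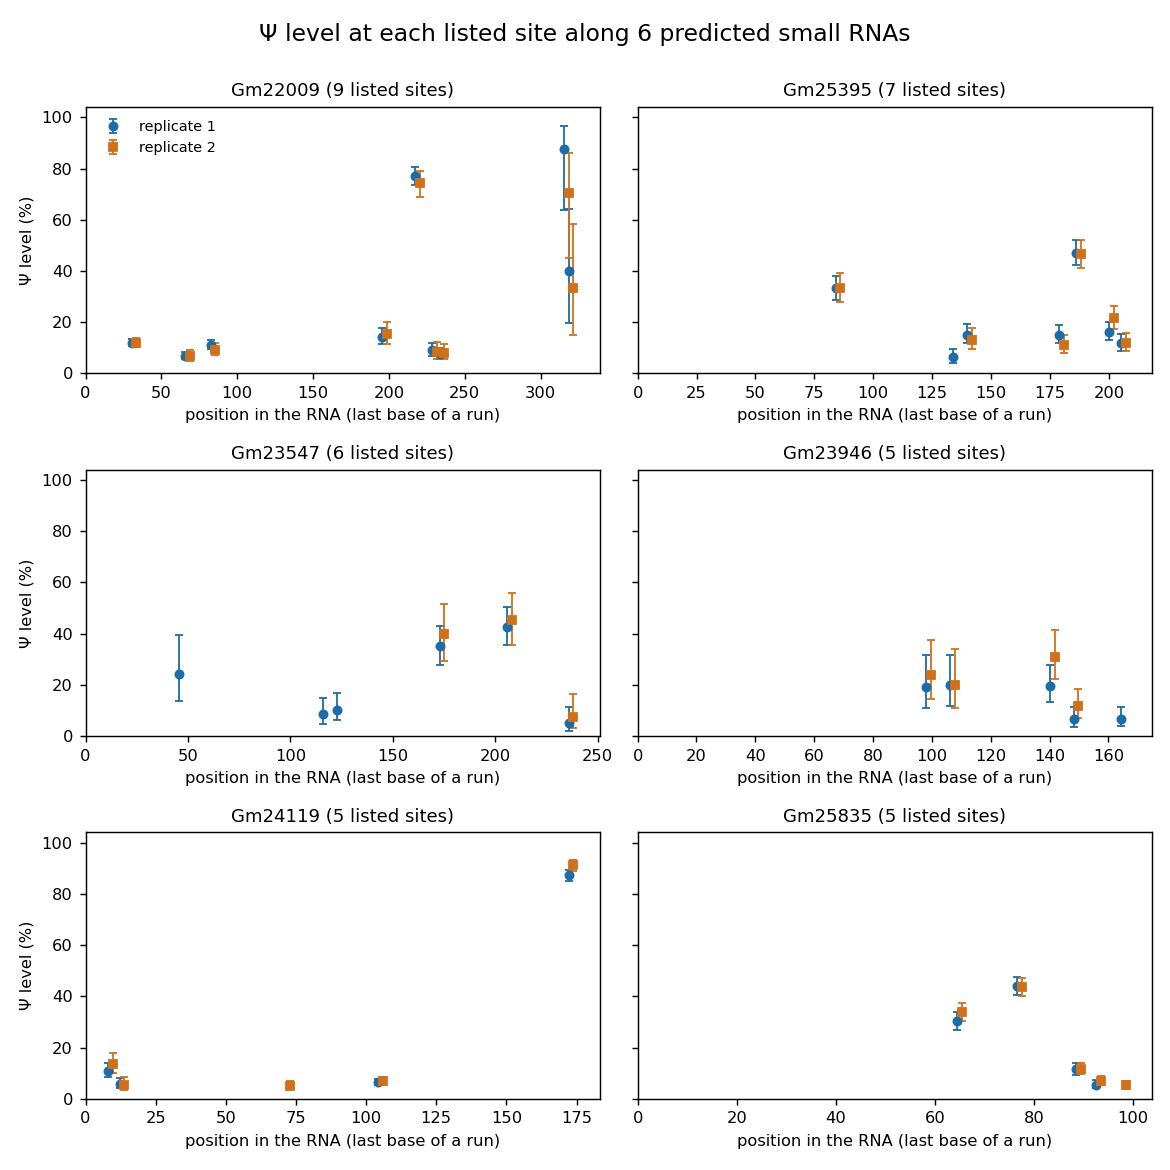
Ψ level in percent (vertical axis) against position in the RNA (horizontal axis) for each listed site of the 6 RNAs, with replicate 1 as circles and replicate 2 as squares, drawn slightly apart; bars are Wilson 95% intervals of the chemistry deletion ratio, placed around the level. Gm24119 has 1 site near 90% and the others under 15%, while the sites of Gm23946 lie between 6.57% and 31.1%.

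Gm24119 showed the steepest contrast between its sites. It lies on the minus strand of chromosome 10, with position 1 at 90954398 of GRCm39. Positions 172 to 173 (coordinate 90954226) had 87.5% in replicate 1 over 885 chemistry reads and 91.3% in replicate 2 over 603. The control had deletions in 0.407% and 0.723% of its reads there. This site was 7.32 times as strong as the next, positions 8 to 9, with 11.0% and 13.4% (mean 12.2% ± 1.72). Positions 103 to 105 had 6.48% and 6.76% over 1588 and 1054 chemistry reads, the deepest site of this RNA. Positions 12 to 13 had 5.96% and 5.30%. The order of these 4 sites was the same in both replicates. Positions 71 to 72 were listed in replicate 2 alone, at 5.14% over 856 chemistry reads, and the level in replicate 1 is unknown.

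Gm22009 held the most sites of the 6 RNAs, with 9, spread from position 31 to position 320. It lies on the minus strand of chromosome 3, with position 1 at 68992780. Position 219 (coordinate 68992562) had 77.2% and 74.4% over 505 and 287 chemistry reads. Its neighbours were weak: position 230, 11 positions downstream, had 9.04% and 8.39%, and positions 234 to 235 had 7.49% and 8.06%. The level at position 219 was thus 8.70 times that at position 230. The other weak sites were positions 196 to 197 (14.8% ± 0.637), 31 to 32 (12.0% ± 0.0494), 82 to 84 (10.2% ± 1.37) and position 67 (6.73% ± 0.0445).

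A pair of runs near the 3′ end of Gm22009 had high levels on few reads. Positions 316 to 317 had deletions in 14 of 16 chemistry reads in replicate 1 and in 11 of 15 in replicate 2. The levels were 87.5% and 70.3%, with Wilson 95% intervals of the chemistry ratio from 64.0% to 96.5% and from 48.0% to 89.1%. Positions 319 to 320, the closest pair of listed sites, had 6 of 15 and 5 of 15 reads with a deletion, levels of 40.0% and 33.3%. These intervals, from 19.8% to 64.3% and from 15.2% to 58.3%, are wide. Neither site reached the minimum of 20 reads used here for a call. At this depth the mean of 78.9% ± 12.2 at positions 316 to 317 could not be told from that at position 219, and the order of these sites turned between replicates.

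Gm25395 had a graded series of levels. It lies on the plus strand of chromosome 1, with position 1 at 87704660. Position 187 (coordinate 87704846) led with 47.2% and 46.6% over 420 and 325 chemistry reads. The run from 79 to 85, the longest among these RNAs, followed with 33.2% and 33.3%. Its deletion ratio was 36.1% and 35.7% with the chemistry, against 2.90% and 2.44% in the control, the highest control ratio among member sites with at least 20 reads in each library. Position 201 had 16.3% and 21.6%, positions 140 to 141 had 15.1% and 13.1%, position 180 had 15.1% and 11.0%, and position 206 had 11.7% and 11.8%. The replicate values of position 180 overlapped those of both positions 140 to 141 and position 206, so that its place in the order was not resolved. Positions 133 to 135 were listed in replicate 1 alone, at 6.33% over 350 chemistry reads.

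Gm25835 had its 5 sites within 34 positions, the shortest stretch of the 6. It lies on the minus strand of chromosome 11, with position 1 at 69559821. Positions 76 to 77 (coordinate 69559745) had 44.0% and 43.5% over 698 and 766 chemistry reads, and position 65 had 30.3% and 33.8%. Downstream of these, levels were lower at each site: positions 86 to 89 had 11.5% and 11.6%, and position 93 had 5.51% and 7.02%. Positions 97 to 98 had 5.29% in replicate 2 and were not listed in replicate 1. The order of the 4 sites with values in both replicates was the same in each.

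Gm23547 had similar leading sites on fewer reads. It lies on the plus strand of chromosome 6, with position 1 at 124692195. Position 207 (coordinate 124692401) had 42.8% and 45.5% over 169 and 88 chemistry reads, and position 174 had 35.1% and 40.0% over 148 and 70. Position 237, 30 positions downstream of the leading site, had 5.05% and 7.46%, each from 5 deletion reads. Another 3 sites were listed in replicate 1 alone, positions 45 to 47 (24.4% over 40 chemistry reads), 117 (8.47%) and 124 (10.3%). Their level in replicate 2 is unknown, and chemistry reads at the sites listed in both replicates were fewer in replicate 2, by a median ratio of 0.521.

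Gm23946 was the flattest of the 6. It lies on the minus strand of chromosome 14, with position 1 at 31914007. Positions 140 to 141 (coordinate 31913867) had 19.7% and 31.1% over 115 and 88 chemistry reads. Position 99 had 19.3% and 24.0%, and position 107 had 19.8% and 20%, over 45 to 60 chemistry reads each. Position 149 had 6.57% and 11.7%. The strongest of these sites was 2.78 times the weakest, against 15.9 times in Gm24119 and 11.7 times in Gm22009. The leading 3 sites changed places between replicates, and none of them stood apart. Positions 163 to 165 were listed in replicate 1 alone, at 6.72%.

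The order of strong and weak sites was largely shared by the replicates. Within the 6 RNAs, 72 pairs of sites had values in both replicates, and 68 pairs had the same order in each. Pairs in other genes of the table were not counted, so whether this share is particular to these RNAs is not known. Gm22009 gave 36 of the 72, including pairs with its shallow sites at positions 316 to 317 and 319 to 320. Order was counted however small the difference, which was 0.00681 points between positions 140 to 141 and position 180 of Gm25395 in replicate 1. The 4 pairs that turned were 2 in Gm23946, 1 in Gm22009 and 1 in Gm25395, none of them with a difference over 11.1 points in either replicate. The strongest site was the same in both replicates in 4 RNAs, and changed in Gm22009 and Gm23946. Spearman's rank correlation of the levels was 1 in Gm24119, Gm25835 and Gm23547 (4, 4 and 3 sites), 0.983 in Gm22009 (9 sites), 0.943 in Gm25395 (6 sites) and 0.40 in Gm23946 (4 sites). These correlations are descriptions, since the sites of an RNA share libraries and may share reads.

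**Figure D2:**
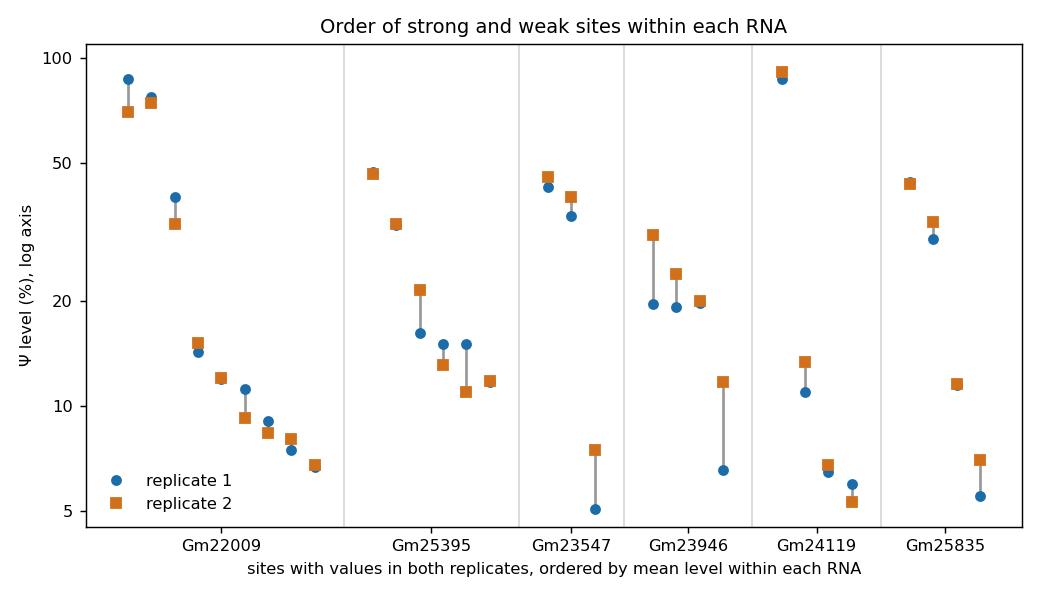
Ψ level in percent on a log axis (vertical) for the 30 sites with values in both replicates, ordered by mean level within each RNA (horizontal); circles are replicate 1, squares replicate 2, and a grey line joins the values of a site. Among the sites furthest apart on this axis are positions 140 to 141 (19.7% and 31.1%) and 149 (6.57% and 11.7%) of Gm23946 and position 237 of Gm23547 (5.05% and 7.46%), while position 107 of Gm23946 has 19.8% and 20%.

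Not every step in this order was resolved. Of the 24 steps between neighbours in the order, the replicate values of 5 overlapped and those of 19 did not. With only 2 values a site, counting error was set beside this. The Wilson 95% intervals of the chemistry ratio were apart in both replicates at 9 steps: 3 in Gm25835, 2 in Gm24119, 2 in Gm25395, 1 in Gm22009 and 1 in Gm23547. Among them were the 77.2 points between positions 172 to 173 and positions 8 to 9 of Gm24119 and the 20.5 points between position 65 and positions 86 to 89 of Gm25835. The steps among the 6 weak sites of Gm22009, from 14.8% to 6.73%, were 0.940 to 2.78 points, and their intervals overlapped.

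Strong and weak sites could lie close together. Of the 31 gaps between consecutive listed sites of an RNA, 17 were at most 15 positions, and the median gap was 14 positions. At 13 of these close pairs both sites had values in both replicates. At 7 of the 13 the stronger site had at least 2 times the level of the weaker. Among them were position 187 of Gm25395, with 3.59 times the level of position 180, and positions 76 to 77 of Gm25835, with 3.79 times that of positions 86 to 89. The 7 include the shallow pair of Gm22009, positions 316 to 317 and 319 to 320 (2.15 times). Each of its sites had only 15 or 16 chemistry reads per replicate, under the minimum of 20. Close pairs in the rest of the table were not counted. How many reads cover both sites of a pair is not known here, and these values are not treated as independent.

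Control deletions were rare at these sites, as the listing required. The control ratio was under 1% at 33 of the 35 sites with values in replicate 1 and at 30 of 32 in replicate 2. No control deletion was read at 13 and 14 sites, where the limit that a count of 0 allows ranged from 0.131% to 9.68% with the control depth. The highest value was 3.06% at positions 316 to 317 of Gm22009 in replicate 2, from 3 of 98 control reads.

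By the rules used here, 28 of the 37 sites were called in both replicates, against 56.7% of all listed sites. For a call, chemistry and control libraries each needed 20 or more reads, the level had to exceed 5 points, the control had to stay below 5%, and the two-sided Fisher exact p below 0.005. The number of listed sites chose these RNAs on nearly the same contrast, so nothing is read from this share. The other sites were the shallow pair of Gm22009 and the 7 listed in 1 replicate. Of these 7, 5 had a level under 10%, and the exceptions were position 124 and positions 45 to 47 of Gm23547.

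Agreement of the replicates was not used to choose these RNAs and was tested over the whole table. Only sites that had passed the listing rules in both replicates could enter, which were 81.1% of member sites and 66.2% of all sites. Sites listed in 1 replicate alone, 7 among the members, were left out, so agreement was in part set by the listing. At 441 sites with at least 20 chemistry reads in each replicate, deletion reads were compared between replicates by a two-sided Fisher exact test with Benjamini-Hochberg adjustment over all 441. None of the 28 member sites tested differed after adjustment, against 2.27% of all sites (10 of 441). At an unadjusted p under 0.05, 1 of the 28 differed, against 12.0% of all sites. This was positions 172 to 173 of Gm24119, which were higher in replicate 2 by 4.13 points of the chemistry ratio (95% Newcombe interval 0.987 to 7.13; Fisher exact p = 0.0120, adjusted p = 0.189). A z test of the control-subtracted levels also gave 0 adjusted calls and 1 unadjusted call among the 28. A p that misses the threshold does not show equal levels, and the test counts read sampling alone.

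**Figure D3:**
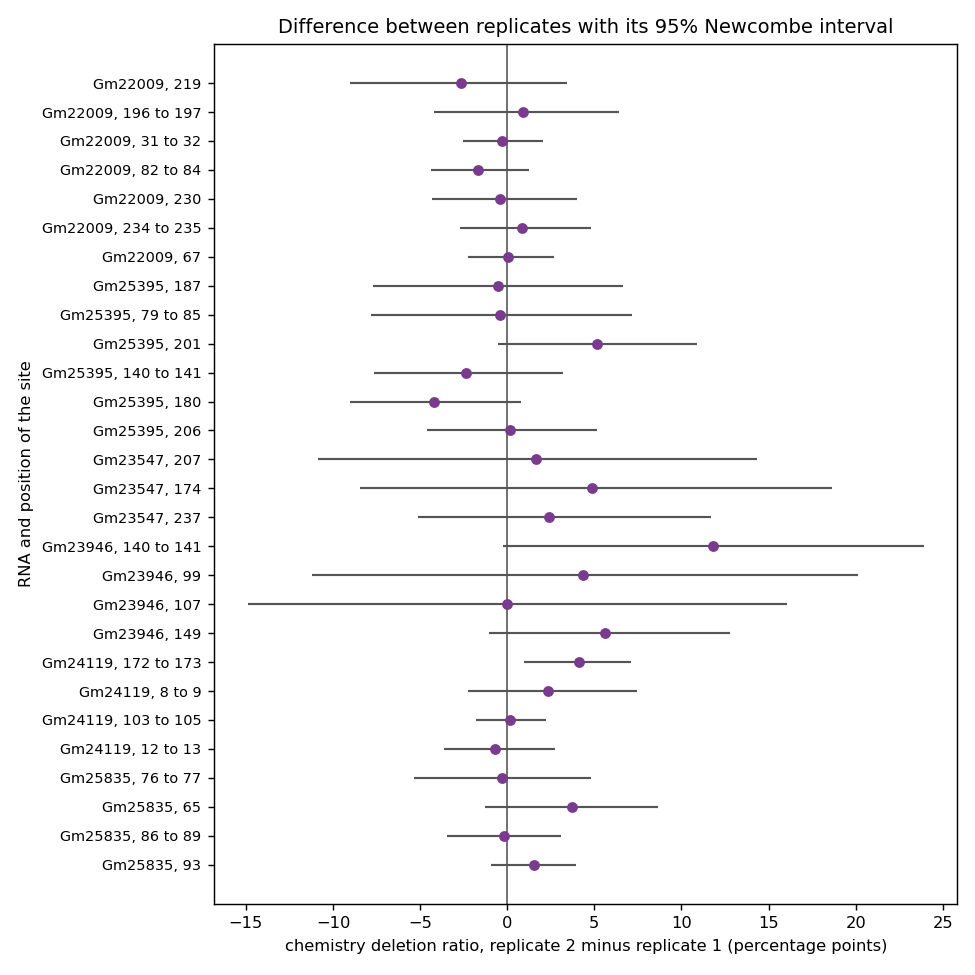
Difference in chemistry deletion ratio, replicate 2 minus replicate 1, in percentage points (horizontal axis), for the 28 sites tested (vertical axis, by RNA and position), with lines for the 95% Newcombe interval. The interval includes 0 at 27 of the 28 sites, and the exception is positions 172 to 173 of Gm24119.

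The difference in level between replicates was at most 1 point at 13 of the 28 sites and at most 5 points at 25. Its SD was 3.14 points, against 6.27 points at the 413 other sites tested. Depth differed too: member sites had a median of 415 and 314 chemistry reads in replicates 1 and 2, and the remaining sites 112 and 131.5. At sites whose shallower replicate had at least 100 and under 1000 chemistry reads, the SD was 2.52 points for 20 member sites and 3.66 points for 194 others. For named snoRNA and scaRNA genes it was 3.41 points there (31 sites), and for other Gm genes typed as snoRNA, guide RNA or snRNA 4.51 points (59 sites). Levels also differed in this class of depth, with medians of 12.6% for the member sites and 20.3% for the others. The medians were 21.9% for named snoRNA and scaRNA genes and 22.2% for the other Gm genes. The SDs were not matched on level, and the part of level in them was not tested. These SDs were not tested against each other. The largest difference among the 28 was 11.4 points at positions 140 to 141 of Gm23946, where the interval for the chemistry ratio ran from -0.225 to 23.9 points. Levels were higher in replicate 2 at 20 of the 28 sites tested, against 217 of 441 over the whole table. Of the sites with values in both replicates these were all 4 of Gm23946, all 3 of Gm23547, 3 of 4 each in Gm24119 and Gm25835, 4 of 9 in Gm22009 and 3 of 6 in Gm25395. Across the 28 sites, Pearson's r was 0.989 and Spearman's rho 0.951, given as descriptions, since sites of an RNA may share reads. The mean levels of these sites ran from 5.63% to 89.4%, and a range this wide raises r. Neither value is given for the other sites tested.

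The median level of the member sites was 14.4%, with an interquartile range from 9.41% to 35.8%. It was lower than the 34.6% of the 470 other sites with values in both replicates, the 26.8% of 81 sites in named snoRNA and scaRNA genes and the 32.9% of 137 sites in other Gm genes of these types. Levels under 15% made up 53.3% of member sites and 26.8% of the others. A weak site needs more reads than a strong one to pass the p threshold, and depth moved with this difference. In the same class of depth the medians were 12.6% (20 member sites) and 20.3% (194 others). As the members were chosen by how many sites passed, the medians were not tested, and the part of depth in them was not tested.

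Read depth set Gm22009 apart from the other 5 RNAs. In replicate 1 it had more chemistry than control reads, by a median ratio of 3.76 over its sites, while in replicate 2 this ratio was 0.322. The other 5 RNAs had median ratios of 0.144 to 0.347 in replicate 1 and of 0.517 to 0.849 in replicate 2. Chemistry reads of replicate 2 over those of replicate 1 had a median of 0.582 at Gm22009 and of 0.521 to 1.09 at the others. Dividing the control reads in the same way gave a median of 3.62 at Gm22009 (3.06 to 6.78), against 0.201 to 0.429 for the medians of the other 5. Over the rest of the table the control ratio had a median of 0.848, with an interquartile range from 0.522 to 1.74. More control reads and fewer chemistry reads in replicate 2 were found at 77 of the 470 sites there (16.4%). At 15 of these the control reads were at least 3-fold more, a limit close to the lowest ratio of Gm22009. The control medians of the other 5 RNAs also lay outside that interquartile range, below it. The level uses the control only through its deletion ratio, which at Gm22009 was at most 0.404% outside positions 316 to 317.

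**Figure D4:**
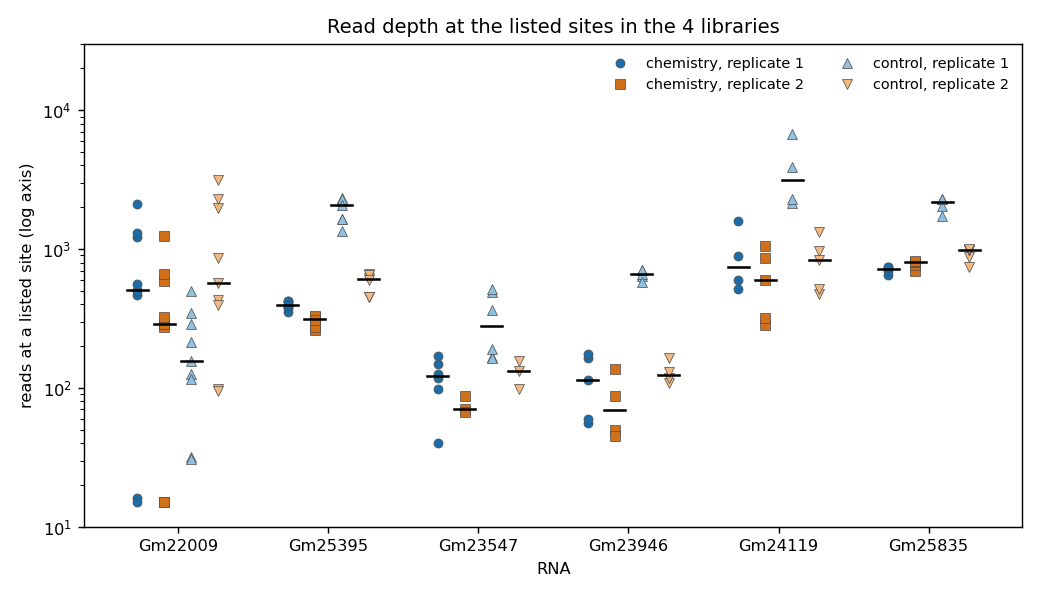
Reads at each listed site on a log axis (vertical) for the 6 RNAs (horizontal), in the chemistry libraries of replicates 1 and 2 and the control libraries of replicates 1 and 2; black bars are medians over sites. In 5 RNAs the control of replicate 1 is the deepest of the 4 libraries, while in Gm22009 it has the fewest reads by median.

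Depth also varied along the RNAs. Gm22009 had 2104 and 1236 chemistry reads at positions 31 to 32, 505 and 287 at position 219, and 16 and 15 at positions 316 to 317. Its control reads were 495 and 3142, 157 and 569, and 32 and 98 at the same sites. Both kinds of library thus had the fewest reads at the 3′ sites. Gm24119 had its deepest site at positions 103 to 105 in all 4 libraries, with 1588 and 1054 chemistry and 6751 and 1332 control reads. In replicate 1 the sites of Gm25835 had 652 to 744 chemistry and 1725 to 2293 control reads, and those of Gm25395 had 350 to 422 chemistry and 1344 to 2340 control reads. The level of each site rests on the reads at that site, so the weak sites of Gm22009 near its 5′ end are the best measured and its 3′ sites the least.

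The threshold of 5 listed sites fell between RNAs of similar kind. Just inside it were Gm23946, Gm24119 and Gm25835, with 5 sites each. Just outside were 3 Gm genes typed as small RNA with 4 listed sites. These were the guide RNA Gm22442 (11.9% to 42.2% over 4 sites with values in both replicates), the snRNA Gm24407 (18.6% to 64.8% over 3 sites) and the snoRNA Gm26448 (12.3% to 35.6% over 3 sites). The machinery that makes Ψ was looked up in a list of 20 genes of synthases and H/ACA or Cajal body proteins. Only Dkc1, the gene for dyskerin, had a listed site, at positions 483 to 484 in replicate 2 over 7 chemistry reads.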

How the data were processed

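PRAISE libraries with and without the chemistry were made from cochlear tissue of 2 untreated Otof c.1315 C > T samples. The labels name polyA RNA, while per the study's methods ribosomal RNA was removed from total RNA, read 2 was trimmed, duplicates collapsed, all libraries thinned to 1 size and reads aligned to RefSeq transcripts by PRAISE-tool. The submitters' processing notes name cutadapt 4.2, UMI-tools 1.0.0 and GRCm39. The deposited counts are deletion and total reads per site and library, without normalization. The deposited fractions are deletion ratios and the level, which the counts reproduced. The authors kept a site in a replicate by rules on p, control ratio and level, and elsewhere it has no value. The deposited p-values of chemistry against control were not used. The 2 Gm24119 positions stored as calendar dates were read back as month and day, which fitted the genome coordinates. For runs, the coordinate is that of the last position.

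Levels were recomputed from the counts with Python 3.11.15, NumPy 2.4.6, SciPy 1.17.1, pandas 2.3.3 and statsmodels 0.14.6. Member sites had 15 to 2104 chemistry and 31 to 6751 control reads. Intervals and limits cover counting error only. The replicate test ran on the whole table. It was also run on simulated reads at the real depths, with counting error alone and changes larger than any difference among the 28 member sites. Smaller changes and other spread between samples were not simulated. Gene types and enclosing genes came from a RefSeq table of GRCm38.p6, matched by symbol, and its coordinates were used for neighbourhood only. Sequences were not analysed here. The members, lists and rules were chosen with earlier results of these data known. The text names all sites of the 6 RNAs, Gm small RNAs with 4 listed sites, enclosing genes, listed Ψ machinery and, for each RNA, the gene nearest in its highest, median and lowest level. Alternatives were other read minimums and level thresholds, no control subtraction, summed reads, a z test, date-like positions left out and each replicate left out.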

Additional observations from a re-analysis of the deposited data

How the results depend on the processing

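Calls in both replicates numbered 28 of the member sites, and 30 with a minimum of 10 reads, 27 at 50 reads and 19 at a level over 10 points, and 30 to 33 from a single replicate. As the sites listed had passed similar rules, this range was largely set in advance. Member sites that differed between replicates numbered 0 at 10, 20 and 50 reads and by the z test, with smallest adjusted p from 0.161 to 0.222, while the whole table gave 7 to 11. The median level of all member sites (14.4%) was 13.6% where all 4 libraries had 20 or more reads, and 14.3% to 15.1% with either replicate left out. Of these the 13.6%, and the 15.1% without replicate 2, differed from 14.4% by more than 1 SD of the replicate medians. For Gm22009 the median (12.0%) was 10.2% with that minimum, which drops its 3′ sites, and 12.2% without control subtraction. The other 5 medians stayed within 1 SD in these settings. For the read minimum and for a replicate left out, this was largely set in advance. Their sites with values in both replicates all met that minimum, and each of 2 values lies within 1 SD of their mean. Of the 30 single levels, 7 moved beyond the SD without control subtraction, by at most 2.67 points, and 2 with reads summed. Leaving out a replicate moved none by more than 1.39 times. The SD of the replicate difference (3.14 points) was 3.19, 3.20 and 3.23 points in other settings. No paired analysis was possible because values of the untreated group alone were analysed. RESTART v3 against untreated was not run. Depth limits the 3′ sites of Gm22009, the sites of Gm23946 and position 237 of Gm23547, and the level at sites without a value is unknown.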

Other observations

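Other genes with 3 or more sites valued in both replicates (28 genes) were compared with each RNA by the distance, in points, between their highest, median and lowest mean levels over the 2 samples. Gm25395 and Gm25835 both had Gm22442, a predicted guide RNA, as their nearest (distance 5.99 points each; levels 42.2%, 20.3% and 11.9%). Gm23547 was nearest to Rnu6, the U6 RNA of the spliceosome (6.11 points; 44.2%, 36.5% and 12.3%). Gm23946 was nearest to Snord15a, a named snoRNA gene (9.13 points; 21.8%, 12.7% and 11.6%). Gm24119 and Gm22009 were both nearest to Gm24336, at 15.3 and 17.5 points (91.3%, 23.4% and 11.5%). The distance of Gm22009 uses its highest level, 78.9% at positions 316 to 317, which rests on 16 and 15 chemistry reads.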
